A study of Hordeum vulgare with 30 samples.

Results

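In the roots of 5 barley (Hordeum vulgare) varieties, 79 genes that were already expressed in control plants had at least 2 times as many transcripts after waterlogging in every variety. They were chosen by their levels and ratios. Counts were divided by the library total to give CPM (counts per 1000000 counts), and the CPM were averaged over the 3 libraries of each group. A gene was kept when its control mean was at least 1 CPM and its waterlogged mean was at least 2 times its control mean in all 5 varieties. Of the 35826 genes in the table, 17549 met the first condition and 88 met both. The rule left out 10 genes by identifier, among them 3 described as alcohol dehydrogenases and 1 as an ethylene-responsive transcription factor. The paper also names others of these 10 as homologs of group VII ethylene response factors. Of the 10 genes left out, 9 met both conditions. The 79 genes that remained are 0.45% of the 17549 expressed genes. Since the levels and ratios chose them, the difference between waterlogged and control roots is given below as a description and not as a test.

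The waterlogged groups were roots of 10-day-old plants whose pots stood in water for 24 h, and the control groups were roots of plants of the same variety that were watered normally. The varieties were Golden Promise, a two-row spring barley, Infinity and Regina, two-row winter barleys, and Passport and Pilastro, six-row winter barleys. No transgene or mutation was named for any of them. Each variety and treatment had 3 libraries (30 in all, 10 groups of 3), and each library was made from the pooled root systems of 3 plants, in an experiment that was carried out independently 3 times. The libraries are bulk RNA of whole root systems, so that more cells of one type and more RNA per cell cannot be told apart, and a library shows the mean of its pool and not the spread between plants.

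Waterlogged soil holds little oxygen, because gases diffuse slowly through water, and roots in it must sense the shortage and make energy with less respiration. In Arabidopsis, plant cysteine oxidases use oxygen to oxidize the N-terminal cysteine of group VII ethylene response factors, which marks these transcription factors for degradation. When oxygen falls, the factors persist and switch on genes of fermentation and sugar use, and genes of cysteine oxidases themselves. Ethylene, a gas that collects in flooded tissue, is made by ACC synthase, which forms 1-aminocyclopropane-1-carboxylate (ACC), and by ACC oxidase, which turns ACC into ethylene and needs oxygen to do so.

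The members differed widely in how far they went past the threshold. The smallest of a gene's 5 ratios had a median of 2.43 over the 79 genes, and the largest had a median of 6.16. In 41 genes the smallest ratio was under 2.5, in 24 it was 3 or more and in 8 it was 5 or more. The 5 genes nearest to the threshold on the inside had smallest ratios between 2.002 and 2.015, with a RING finger protein gene as the one with a description, and the 5 nearest on the outside had 1.990 to 1.997. The waterlogged libraries were all above the control libraries in 78 of the 79 genes for Golden Promise, 62 for Infinity, 69 for Passport, 67 for Pilastro and 75 for Regina. Among the 17549 expressed genes the same was seen in 6.79% for Golden Promise, 7.21% for Infinity, 10.4% for Passport, 12.9% for Pilastro and 6.76% for Regina. In 47 of the 79 genes it held in all 5 varieties, against 0.997% of the expressed genes. Nothing is read from these shares, since a gene had to reach a ratio of 2 to be a member.

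**Figure D1:**
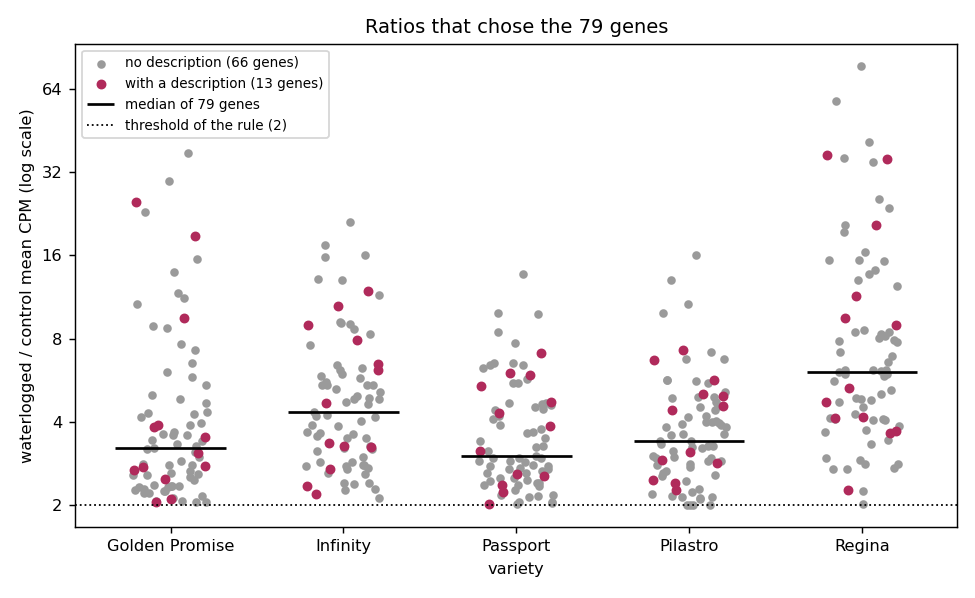
Ratio of the waterlogged to the control mean CPM (vertical axis, log scale) of each of the 79 genes in each variety, with 1 point a gene, the median as a line and the threshold of 2 as a dotted line. The medians are 3.21 for Golden Promise, 4.35 for Infinity, 3.01 for Passport, 3.42 for Pilastro and 6.06 for Regina.

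Of the 79 genes, 13 have a description in the sources used here and 66 do not. The described genes are presented by role, each with its CPM in replicates 1, 2 and 3, and gene identifiers are written without their shared prefix HORVU.MOREX.r3 (version 3 of the genome of the variety Morex). The first digit and letter of an identifier give the chromosome. Start and end positions were not given in the sources used here. CPM are not divided by gene length, so levels are compared between groups for 1 gene and never between genes.

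Among the 13 described members, 3 are named 2-aminoethanethiol dioxygenase, the name of the animal enzyme to which plant cysteine oxidases are related. They are called cysteine oxidases below, a name that the description itself does not give. The member 5HG0425080 had ratios between 5.03 in Pilastro and 20.7 in Regina. Waterlogged roots of Golden Promise held 205, 291 and 229.6 CPM, against 20.0, 37.0 and 19.3 CPM in its controls, and Infinity 780.4, 554 and 147 CPM, against 112, 27.0 and 48.7 CPM in its controls. In Passport, the waterlogged libraries had 529.9, 489 and 507 CPM, against 49.2, 149 and 59.3 CPM in its controls, and in Pilastro 621, 296 and 650.2 CPM, against 30.7, 127 and 153 CPM in its controls. The Regina libraries had 733, 354 and 437 CPM, against 43.4, 18.4 and 11.9 CPM in the controls. Every waterlogged library was above every control library of its variety. The waterlogged means of Infinity, Passport, Pilastro and Regina lay between 494 and 522 CPM, while that of Golden Promise was 242 CPM. Control means were 104 CPM for Pilastro, 85.8 for Passport, 62.6 for Infinity, 25.4 for Golden Promise and 24.6 for Regina.

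The cysteine oxidase 2HG0208830 had ratios between 3.84 in Golden Promise and 9.49 in Regina. After waterlogging, Golden Promise gave 128, 127 and 102 CPM, against 24.2, 42.8 and 25.8 CPM in its controls, and Infinity 276, 168 and 106 CPM, against 51.2, 26.8 and 40.2 CPM in its controls. Waterlogged Passport roots gave 202, 239.6 and 241 CPM, against 38.9, 59.0 and 60.8 CPM in its controls, and in Pilastro 291, 233 and 379 CPM, against 32.4, 87.8 and 85.5 CPM in its controls. Waterlogged Regina roots gave 257, 216 and 189 CPM, against 34.7, 21.4 and 13.7 CPM in the controls. The groups did not overlap in any variety. Pilastro had the highest mean in both conditions, and its control library 1 was below its other controls. The cysteine oxidase 1HG0094490 had smaller ratios, between 2.23 in Passport and 5.30 in Regina. The waterlogged Golden Promise libraries had 114, 124 and 137 CPM, against 25.1, 40.1 and 30.8 CPM in its controls, and Infinity 252, 174 and 71.8 CPM, against 79.5, 41.6 and 63.8 CPM in its controls. For Passport the waterlogged values were 157, 86.6 and 111 CPM, against 51.4, 60.6 and 46.7 CPM in its controls, and in Pilastro 160.1, 82.9 and 84.6 CPM, against 38.1, 55.0 and 51.6 CPM in its controls. For waterlogged Regina roots they were 227, 117 and 161 CPM, against 50.9, 26.9 and 17.5 CPM in the controls. Here Infinity overlapped, since its waterlogged library 3 was below its control library 1.

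The gene 7HG0746640, described as ACC oxidase 1, had ratios between 5.68 in Pilastro and 35.8 in Regina. Waterlogged roots of Golden Promise held 161, 205 and 128 CPM, against 7.85, 11.4 and 6.89 CPM in its controls, and Infinity 583, 403 and 178 CPM, against 59.7, 13.0 and 25.0 CPM in its controls. In Passport, the waterlogged libraries had 256, 286 and 326 CPM, against 26.5, 59.3 and 36.4 CPM in its controls, and in Pilastro 382, 252 and 508 CPM, against 17.2, 109 and 75.3 CPM in its controls. The Regina libraries had 372, 313 and 264 CPM, against 16.2, 5.01 and 5.21 CPM in the controls. The groups were apart in all varieties. Its control mean was 67.0 CPM for Pilastro, 40.8 for Passport and 32.6 for Infinity, but 8.82 for Regina and 8.72 for Golden Promise.

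The other ACC oxidase among the members, 5HG0485780, behaved differently across the varieties. Its ratios were close to each other, between 2.55 in Passport and 3.65 in Regina, while its level depended on the variety in both conditions. After waterlogging, Golden Promise gave 62.5, 73.4 and 38.0 CPM, against 19.1, 23.9 and 13.4 CPM in its controls, and Infinity 18.1, 13.9 and 4.44 CPM, against 3.66, 4.17 and 3.43 CPM in its controls. Waterlogged Passport roots gave 11.5, 7.33 and 11.5 CPM, against 4.92, 2.52 and 4.48 CPM in its controls, and in Pilastro 153, 97.5 and 216 CPM, against 39.9, 53.9 and 70.9 CPM in its controls. Waterlogged Regina roots gave 26.9, 37.3 and 19.6 CPM, against 7.94, 11.2 and 3.82 CPM in the controls. In order of control means, Pilastro had 54.9 ± 15.6 CPM, Golden Promise 18.8 ± 5.29, Regina 7.64 ± 3.69, Passport 3.97 ± 1.28 and Infinity 3.75 ± 0.376 (SD, n = 3). After waterlogging Pilastro had 155 ± 59.2 CPM, Golden Promise 58.0 ± 18.1, Regina 27.9 ± 8.92, Infinity 12.2 ± 7.01 and Passport 10.1 ± 2.43. The last 2 places in each order did not differ beyond their spread. The waterlogged Infinity library 3 was low, at 4.44 CPM, yet above the Infinity controls.

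**Figure D2:**
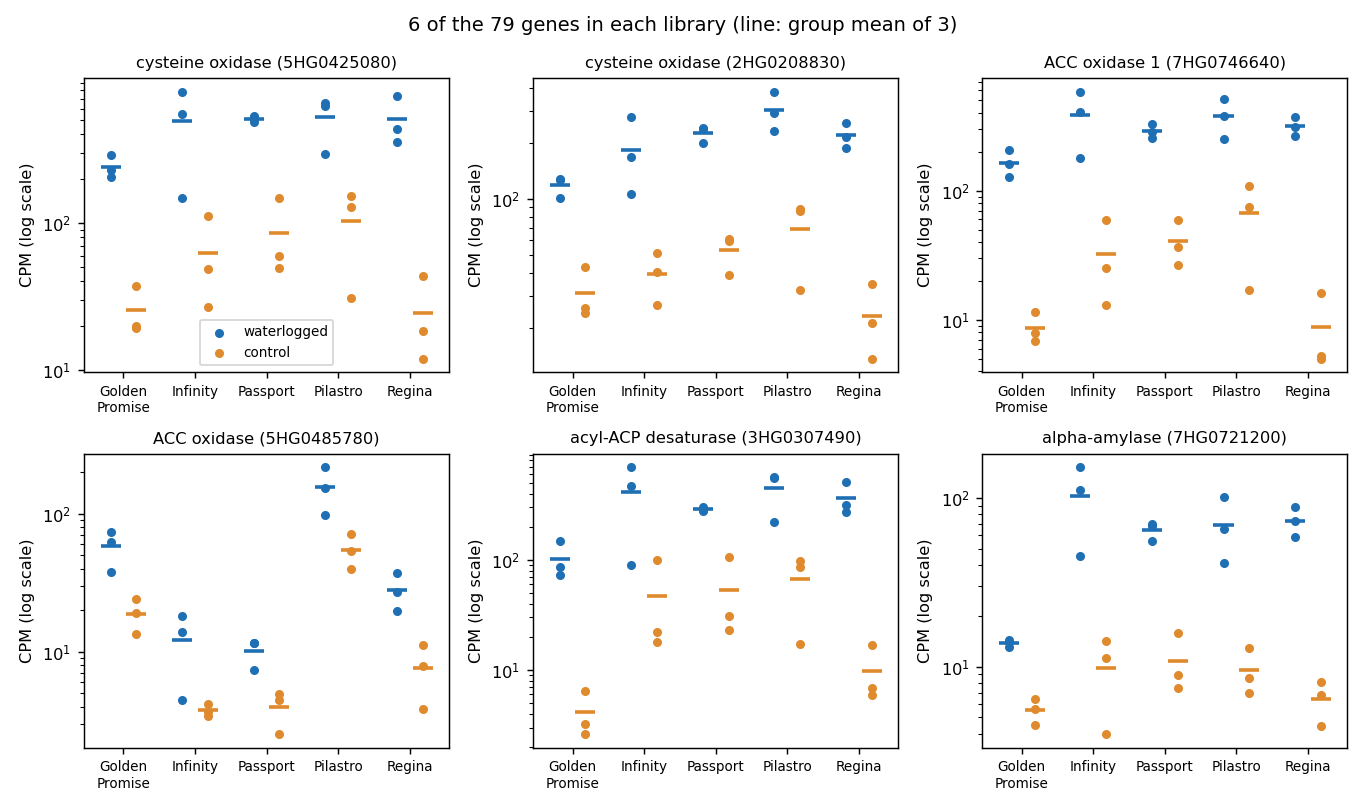
CPM (log scale) of 6 of the described genes in each library, by variety, with waterlogged libraries at the left and controls at the right of each pair and a line at the mean of 3. ACC oxidase 1 (7HG0746640) reaches 128 to 583 CPM in waterlogged libraries, against 5.01 to 108.6 CPM in controls, and the ACC oxidase 5HG0485780 is highest in Pilastro in both conditions.

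Of the described members, 3 belong to sugar, starch and amino acid metabolism. The alpha-amylase gene 7HG0721200, whose enzyme cuts starch into smaller sugars, had ratios between 2.49 in Golden Promise and 11.4 in Regina. The waterlogged Golden Promise libraries had 13.0, 13.9 and 14.3 CPM, against 6.43, 4.50 and 5.63 CPM in its controls, and Infinity 152, 112 and 45.0 CPM, against 11.3, 3.96 and 14.2 CPM in its controls. For Passport the waterlogged values were 68.1, 69.97 and 55.7 CPM, against 7.46, 15.9 and 8.97 CPM in its controls, and in Pilastro 101, 41.0 and 65.7 CPM, against 8.58, 12.9 and 7.00 CPM in its controls. For waterlogged Regina roots they were 88.5, 58.7 and 73.2 CPM, against 6.74, 4.43 and 8.10 CPM in the controls. All waterlogged libraries of Golden Promise were at 14.3 CPM or less, and all those of the other varieties were at 41.0 CPM or more. The gene 1HG0019260, described as an aminotransferase, an enzyme that moves amino groups between amino acids and keto acids, had ratios between 2.77 in Golden Promise and 8.97 in Regina. Waterlogged roots of Golden Promise held 329.5, 513 and 266 CPM, against 104, 153 and 143 CPM in its controls, and Infinity 1813, 948 and 397 CPM, against 219, 137 and 133 CPM in its controls. In Passport, the waterlogged libraries had 885, 761 and 817 CPM, against 144, 190.4 and 189 CPM in its controls, and in Pilastro 1183, 704 and 1661 CPM, against 147, 314 and 253 CPM in its controls. The Regina libraries had 1261, 1581 and 797 CPM, against 146, 149 and 111 CPM in the controls. The Infinity waterlogged libraries spread the most here, with an SD of 714 CPM around a mean of 1053 CPM. The gene 1HG0007200 encodes glucose-6-phosphate isomerase, which interconverts the phosphates of glucose and fructose at the start of glycolysis, and its groups were apart in all varieties. Waterlogged and control means (± SD, n = 3 each) were 258 ± 52.0 CPM, against 123 ± 14.8 CPM for Golden Promise and 515 ± 280.1 CPM, against 157 ± 27.3 CPM for Infinity. They were 427 ± 39.7 CPM, against 165 ± 8.03 CPM for Passport, 602 ± 129 CPM, against 195 ± 56.7 CPM for Pilastro and 646 ± 143 CPM, against 156 ± 16.6 CPM for Regina. Its ratios ran between 2.105 in Golden Promise and 4.15 in Regina.

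The acyl-[acyl-carrier-protein] desaturase gene 3HG0307490, whose enzyme puts the first double bond into fatty acids in plastids, had ratios between 5.39 in Passport and 37.0 in Regina. After waterlogging, Golden Promise gave 72.2, 149.8 and 86.2 CPM, against 3.26, 6.51 and 2.61 CPM in its controls, and Infinity 689.5, 470.0 and 89.1 CPM, against 99.8, 17.9 and 22.2 CPM in its controls. Waterlogged Passport roots gave 277, 282 and 301 CPM, against 23.2, 105 and 31.1 CPM in its controls, and in Pilastro 553, 221 and 571 CPM, against 17.2, 86.4 and 96.7 CPM in its controls. Waterlogged Regina roots gave 508, 315 and 272 CPM, against 16.8, 5.88 and 6.89 CPM in the controls. Its controls in Golden Promise and Regina were at 16.8 CPM or less. Control libraries of Infinity, Passport and Pilastro reached 96.7 to 105.5 CPM, and the waterlogged Infinity library 3 was below the highest Infinity control.

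Another 3 described members act in protein turnover. The gene 1HG0063330, of the aspartyl protease family, had ratios between 3.53 in Golden Promise and 6.16 in Infinity. The waterlogged Golden Promise libraries had 27.1, 46.2 and 31.4 CPM, against 10.9, 10.4 and 8.41 CPM in its controls, and Infinity 113, 92.6 and 72.8 CPM, against 14.1, 12.9 and 18.2 CPM in its controls. For Passport the waterlogged values were 46.5, 76.0 and 52.0 CPM, against 15.6, 15.0 and 14.8 CPM in its controls, and in Pilastro 98.8, 73.1 and 81.0 CPM, against 14.5, 21.6 and 19.4 CPM in its controls. For waterlogged Regina roots they were 70.2, 78.8 and 57.1 CPM, against 12.7, 19.1 and 24.0 CPM in the controls. Waterlogged libraries were above controls in all varieties. The gene 1HG0064890 is described as an FtsH protease, an ATP-dependent protease of mitochondrial and plastid membranes, and had ratios between 2.05 in Golden Promise and 3.36 in Infinity. Waterlogged and control means (± SD, n = 3 each) were 28.8 ± 5.29 CPM, against 14.0 ± 1.27 CPM for Golden Promise and 24.9 ± 7.40 CPM, against 7.40 ± 1.52 CPM for Infinity. They were 21.5 ± 4.89 CPM, against 9.13 ± 1.81 CPM for Passport, 27.8 ± 3.67 CPM, against 11.6 ± 3.91 CPM for Pilastro and 19.0 ± 9.66 CPM, against 8.39 ± 3.94 CPM for Regina. In Regina the groups overlapped. The gene 1HG0039160 encodes a RING finger protein, a domain found in many ubiquitin ligases, and had the smallest ratio of the described members, 2.02 in Passport. Waterlogged and control means (± SD, n = 3 each) were 186 ± 69.7 CPM, against 67.7 ± 23.4 CPM for Golden Promise and 195 ± 117 CPM, against 89.1 ± 30.2 CPM for Infinity. They were 141 ± 30.5 CPM, against 69.8 ± 13.6 CPM for Passport, 196 ± 60.4 CPM, against 67.6 ± 8.52 CPM for Pilastro and 256 ± 117 CPM, against 62.2 ± 17.98 CPM for Regina. In Infinity the groups overlapped.

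The last described member, 7HG0727250, is a 14 kDa proline-rich protein of the DC2.15 type, a family of small proteins named after a carrot gene. Waterlogged and control means (± SD, n = 3 each) were 18.6 ± 7.40 CPM, against 6.97 ± 2.29 CPM for Golden Promise and 34.8 ± 16.4 CPM, against 14.9 ± 4.28 CPM for Infinity. They were 39.7 ± 14.5 CPM, against 12.7 ± 1.82 CPM for Passport, 46.8 ± 23.8 CPM, against 19.1 ± 20.2 CPM for Pilastro and 43.3 ± 9.28 CPM, against 9.16 ± 5.35 CPM for Regina. Its groups overlapped in Infinity and Pilastro, and in Pilastro 1 control library was at 42.2 CPM while the other controls were at 4.79 and 10.2 CPM.

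Among the 66 members without a description, the smallest ratio ran from 2.00 to 11.7 with a median of 2.38, and the largest ratio had a median of 6.17. The groups were apart in all varieties in 39 of them. The 2 with the highest smallest ratio are given by identifier. The gene 4HG0382720 had the highest of all 79, with ratios between 11.7 in Golden Promise and 41.4 in Regina. Waterlogged roots of Golden Promise held 105, 231 and 112 CPM, against 13.2, 12.3 and 12.9 CPM in its controls, and Infinity 807, 472 and 150.0 CPM, against 31.1, 8.85 and 27.3 CPM in its controls. In Passport, the waterlogged libraries had 360.0, 345 and 323 CPM, against 13.4, 38.6 and 23.2 CPM in its controls, and in Pilastro 495, 282 and 532 CPM, against 10.7, 40.6 and 30.5 CPM in its controls. The Regina libraries had 636, 407 and 455 CPM, against 14.7, 6.07 and 15.5 CPM in the controls. Its lowest waterlogged library of all, at 104.6 CPM, was above its highest control of any variety, at 40.6 CPM. The gene 7HG0649540 held the largest single ratio of the 79 genes, 77.7 in Regina, with its smallest, 7.70, in Passport. After waterlogging, Golden Promise gave 58.0, 81.7 and 61.6 CPM, against 0, 4.84 and 1.93 CPM in its controls, and Infinity 309, 257 and 45.4 CPM, against 36.6, 4.79 and 5.42 CPM in its controls. Waterlogged Passport roots gave 219, 150.1 and 222 CPM, against 16.9, 41.3 and 18.5 CPM in its controls, and in Pilastro 338, 167 and 759 CPM, against 9.82, 38.5 and 70.3 CPM in its controls. Waterlogged Regina roots gave 423, 319.7 and 205 CPM, against 9.32, 2.22 and 0.652 CPM in the controls. In Golden Promise 1 control library had no read of it, and the Pilastro controls spread from 9.82 to 70.3 CPM.

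In the fit across all 20576 genes that passed a filter on low counts (edgeR's quasi-likelihood test, all 79 members among them), a gene was called when its Benjamini-Hochberg adjusted p was under 0.05. This contrast is the one that chose the members, so the counts describe how replicate error limits the calls. Called higher in waterlogged than in control roots were 30 of the 79 genes for Golden Promise (0.379% of all genes tested were), 64 for Infinity (3.00%), 35 for Passport (0.729%), 48 for Pilastro (2.46%) and 68 for Regina (2.56%). In all 5 varieties at once 15 members were called, among 27 genes in all (0.131%), and 5 members were called in no variety. The counts depended on single libraries, and the share of all genes called was computed for the fit above only. In Golden Promise 2 to 17 members were called when 1 of its own 6 libraries was left out, and 49 by DESeq2. In Infinity 30 were called without control 2 and 9 when Infinity was fitted alone. In Passport the count was 9 without control 1, 17 without control 3, 20 without waterlogged 2 and 23 without waterlogged 3. In Pilastro it was 27 without control 1, 31 without control 3, 23 without waterlogged 3 and 0 when Pilastro was fitted alone (48 when all varieties shared one estimate of the spread). With the replicate number as a block within each variety, Passport had 49 and Regina 73.

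Whether the 5 varieties differed in the size of the response was looked at by the interaction of variety and treatment. It is not independent of the rule, which asked a ratio of at least 2 in every variety, and is given as a description. It called 0 of the 79 genes and 0 of all genes tested (0%) with edgeR, and the smallest adjusted p of a member was 1. At an unadjusted p under 0.05 it had 14 of the 79 genes, where all genes tested had 3.22%, and DESeq2 also called 0 members. As a description, the largest of the 5 ratios was that of Regina in 60 of the 79 genes (49 to 63 when single libraries were left out), of Infinity in 10, of Pilastro in 5, of Golden Promise in 3 and of Passport in 1. The smallest was that of Golden Promise in 38, of Passport in 20 and of Pilastro in 17. The same counts were not made over the expressed genes, so no ranking of the varieties is read from them.

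The families of the described members were looked at as a whole. Of 6 genes described as 2-aminoethanethiol dioxygenase, here called cysteine oxidases, all were tested and 3 are members. Called higher by edgeR were 3 of 6 for Golden Promise, 3 for Infinity, 1 for Passport, 2 for Pilastro and 4 for Regina, and none was called lower in any variety by edgeR or DESeq2. DESeq2 called 4 higher in each of Golden Promise and Regina, 3 in each of Infinity and Pilastro and 2 in Passport. Among all genes tested the shares called lower after waterlogging were 0.0632% for Golden Promise, 0.923% for Infinity, 0.355% for Passport, 1.36% for Pilastro and 1.49% for Regina. The 3 members had to be higher in every variety. Of the 3 others, 1 was called higher by edgeR, in Regina. Their median log2 fold change (waterlogged over control) was -0.01 for Golden Promise, 0.19 for Infinity, 0.14 for Passport, 0.02 for Pilastro and 0.13 for Regina, where the median of all genes tested lay between -0.03 and 0 in the 5 varieties. These 3 genes differed from each other. The gene 5HG0425090, whose identifier follows that of the member 5HG0425080, missed the control minimum in Golden Promise, where it was at 5.15 CPM in waterlogged roots and 0 CPM in controls, and reached 49.1 CPM, against 1.35 CPM in controls, in Regina. The genes 5HG0473030 and 6HG0605360 were called in no variety by edgeR. For 5HG0473030 the log2 fold changes lay between -0.61 and 0.19. For 6HG0605360 the means were 56.7 CPM in waterlogged and 53.7 CPM in control roots of Regina, with log2 fold changes of -0.03 to 0.13 over the 5 varieties.

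A description as ACC oxidase was given to 10 genes, of which 9 could be tested and 2 are members. Called higher by edgeR were 1 for Golden Promise, 4 for Infinity, 1 for Passport, 3 for Pilastro and 4 for Regina, and called lower were 1 for Infinity and 2 for Regina. DESeq2 called 3 higher for Golden Promise, and it called 1 lower for Golden Promise and 1 lower for Passport as well. Without the 2 members, edgeR called 2 of 7 higher for Infinity, 1 for Pilastro and 2 for Regina. The median log2 fold change of these 7 was 0.17 for Golden Promise, -0.52 for Infinity, -0.09 for Passport, -0.65 for Pilastro and -0.58 for Regina. The gene 4HG0347170 went the other way from the members. It had 1.86 CPM in waterlogged and 12.5 CPM in control roots of Infinity (log2 fold change -2.67 ± 0.61 SE, adjusted p = 0.0149 by edgeR) and 2.31 CPM, against 17.1 CPM in controls, in Regina (-2.82 ± 0.61, adjusted p = 0.00697 by edgeR). The gene 5HG0485790, next in number to the member 5HG0485780, was called higher in Pilastro (1.22 ± 0.25, adjusted p = 0.00863 by edgeR) and in Regina (1.19 ± 0.26, adjusted p = 0.00713 by edgeR). Like its neighbor it was highest in Pilastro, at 52.6 CPM in waterlogged and 22.9 CPM in control roots. Whether reads of such neighboring copies were split between them could not be checked from gene counts.

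**Figure D3:**
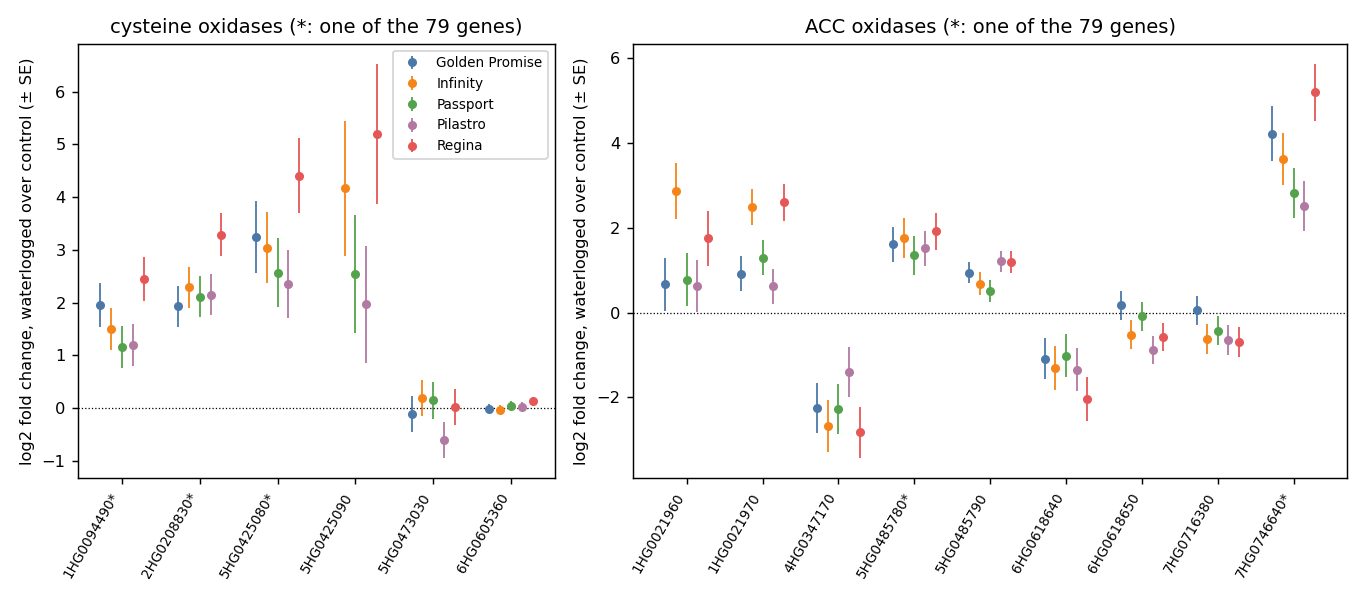
Log2 fold change (waterlogged over control, ± SE) of the cysteine oxidases (left) and ACC oxidases (right) that were tested, with 1 color per variety and members marked by an asterisk. The value of 5HG0425090 in Golden Promise is not drawn, since its controls were at 0 CPM there. Members lie above 0 in every variety, 6HG0605360 lies between -0.03 and 0.13, and 4HG0347170 lies below 0 in every variety.

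No ACC synthase is a member. Of 4 such genes, edgeR called 2 higher for Infinity, 1 for Pilastro and 2 for Regina and 0 for Golden Promise and Passport. Of the 4, 3 had an unadjusted p under 0.05 in at least 1 variety. The share of all genes with such a p in at least 1 variety was not computed, so nothing is read from these counts in any family below. In single varieties 3.74% to 11% of all genes tested were higher at this p, and 2.75% to 9.18% were lower. DESeq2 called 2 higher for each variety except Golden Promise, where it called 0. For Passport the edgeR adjusted p was 0.0542 for 4HG0339160 and 0.0697 for 7HG0644540. ACC synthase 1 (4HG0339160) had 9.14 CPM in waterlogged and 0.686 CPM in control roots of Regina, and it stayed outside the rule because its control mean was under 1 CPM in Golden Promise and Regina. Of 8 alpha-amylases 6 were tested and 1 is a member. Called higher by edgeR were 2 of the 6 for Infinity and 1, the member, in each of Passport, Pilastro and Regina, and 0 for Golden Promise. DESeq2 called 3 for Infinity, 2 in each of Passport, Pilastro and Regina and 0 for Golden Promise, and 4 of the 6 had an unadjusted p under 0.05 in at least 1 variety. The gene 7HG0721210, next in number to the member, had 238 counts over the 30 libraries, and whether it shares reads with the member was not checked. The gene named alpha-amylase 2 (7HG0661480) had 96.8 CPM in waterlogged and 107.6 CPM in control roots of Regina and was called in no variety by edgeR. Other families of sugar and energy metabolism held no member. None of 6 invertases, 12 adenylate kinases tested or 5 carriers of ADP and ATP tested was called by edgeR in any variety. At an unadjusted p under 0.05 in at least 1 variety there were 2 invertases, 5 adenylate kinases and 2 of the carriers, and DESeq2 called 1 invertase and 1 adenylate kinase lower in Pilastro and none of the carriers. Of 4 glucan phosphorylases 2 were called lower by edgeR in Infinity and 3 in Pilastro (3 in each by DESeq2). None of 10 tested 70 kDa heat shock proteins or 10 tested 60 kDa chaperonins was called by edgeR. At an unadjusted p under 0.05 in at least 1 variety there were 5 of the heat shock proteins and 4 of the chaperonins, and DESeq2 called 1 heat shock protein higher in Golden Promise and none of the chaperonins. Of 16 aldehyde dehydrogenases tested, edgeR called 2 lower in each of Infinity, Pilastro and Regina and 1 in Passport, and DESeq2 called 1 lower in Golden Promise, 2 in each of Infinity, Passport and Pilastro and 3 in Regina, and 1 higher in each of Infinity and Pilastro. Of 77 oxygenases that use 2-oxoglutarate and iron, edgeR called 4 higher in Infinity, 1 in Passport and 2 in each of Pilastro and Regina, and 1 lower in Pilastro. DESeq2 called 5 higher in Infinity, 2 in Passport and 4 in each of Pilastro and Regina, and 1 lower in each of Golden Promise and Pilastro. Of 10 ethylene-responsive factors tested, from a partial list, edgeR called 1 higher in each of Golden Promise, Infinity, Passport and Regina and 1 lower in Infinity. DESeq2 called 4 higher in Infinity and 1 in each of the other varieties, and 1 lower in each of Infinity and Pilastro.

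The members were next compared between varieties within each condition. These comparisons use other contrasts than the rule, but the same libraries, so they are not independent of how the genes were chosen. The control means are the denominators and the waterlogged means the numerators of the ratios that chose the members. The expressed genes and all genes tested were not chosen by a ratio, so the shares set beside those of the members are a description. Among the 5 control groups an F-test with edgeR called 28 of the 79 genes (35.4%), where it called 26.7% of all genes tested. Among the 5 waterlogged groups it called 26 (32.9%), where it called 23.3% of all genes tested, and 11 members were called in both. The count of 26 was 16 without waterlogged Golden Promise library 1 or without library 3.

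In control roots the lowest of the 5 means was that of Golden Promise in 46 of the 79 genes and that of Regina in 24, where 21.3% and 16.8% of the expressed genes had their lowest mean in Golden Promise and in Regina. The 2 lowest control means were those of Golden Promise and Regina in 54 of the 79 genes (68.4%), which was so in 11.2% of the expressed genes. The highest control mean was that of Pilastro in 48 of the 79 genes (60.8%), where 27.7% of the expressed genes had it there. Leaving out single libraries gave 46 to 56 in place of 54 and 36 to 55 in place of 48. The count of 46 for Golden Promise ran from 28 to 50, and was 28 without Regina control 1.

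Set against the mean of the other 4 varieties (edgeR), Pilastro controls were called higher in 20 of the 79 genes (25.3%, where 8.53% of all genes tested were), with a median log2 difference of 0.68 over the members and 0.04 over all genes. It was positive in 73 of the 79 genes. The share of all genes with each sign was not counted, here or for the varieties below. Pilastro control 2 was the highest of its group in 54 members, so the 73 are not separate observations. The count of 20 called genes rested on single libraries: it was 4 without Pilastro control 2, 10 without control 3 and 34 without control 1. It was also 6 with a replicate block shared by Infinity and Regina and by Passport and Pilastro. In that fit Infinity controls were called higher in 17 genes (3 without the block, where 4.55% of all genes tested were). Regina controls were called lower in 2 and Golden Promise controls in 14. Shares of all genes were not computed for that fit. Golden Promise controls were called lower in 11 of the 79 genes (13.9%, where 5.56% of all genes tested were). The median log2 difference was -0.68 over the members and -0.01 over all genes. The difference was negative in 69 genes. The count of 11 called genes was 1 without Golden Promise control 1 or without control 3, and 19 by DESeq2. Regina controls were called lower in 4 genes (5.06%, where 2.33% of all genes tested were) and had a negative difference in 68. That count was 10 without Pilastro control 1 and by DESeq2, and 1 without Regina control 2 or without control 3.

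In waterlogged roots Golden Promise stood lowest. Its waterlogged mean was the lowest of the 5 in 58 of the 79 genes (73.4%), where 17.4% of the expressed genes had it lowest there, and the count ran from 54 to 63 when single libraries were left out. Against the other 4 varieties it was called lower in 32 of the 79 genes (40.5%, where 6.68% of all genes tested were), with a median log2 difference of -1.04 over the members and -0.01 over all genes. The count was 11 without its waterlogged library 1 and 14 without library 3. The highest waterlogged mean was that of Pilastro in 31 genes, of Infinity in 23 and of Regina in 22 (39.2%, 29.1% and 27.8%), where 20.7%, 16.4% and 13.4% of the expressed genes had it there. Against the other 4 varieties waterlogged Pilastro was called higher in 5 genes (6.33%, where 5.04% of all genes tested were). Waterlogged Infinity was called higher in 11 genes (13.9%, where 6.90% of all genes tested were), which was 5 without its library 1. Waterlogged Regina was called higher in 0 genes by edgeR (3.50% of all genes tested were) and in 0 by DESeq2. At an unadjusted p under 0.05 by edgeR it was higher in 8 of the 79 genes, where 9.17% of all genes tested were. Same-numbered waterlogged libraries deviated together between Infinity and Regina and between Passport and Pilastro. With a replicate block shared within these pairs of varieties the counts were 18 for Infinity, 16 for Regina, 5 for Pilastro and 28 lower for Golden Promise. Shares of all genes called in that fit were not computed, so whether the change concerns the members was not tested.

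**Figure D4:**
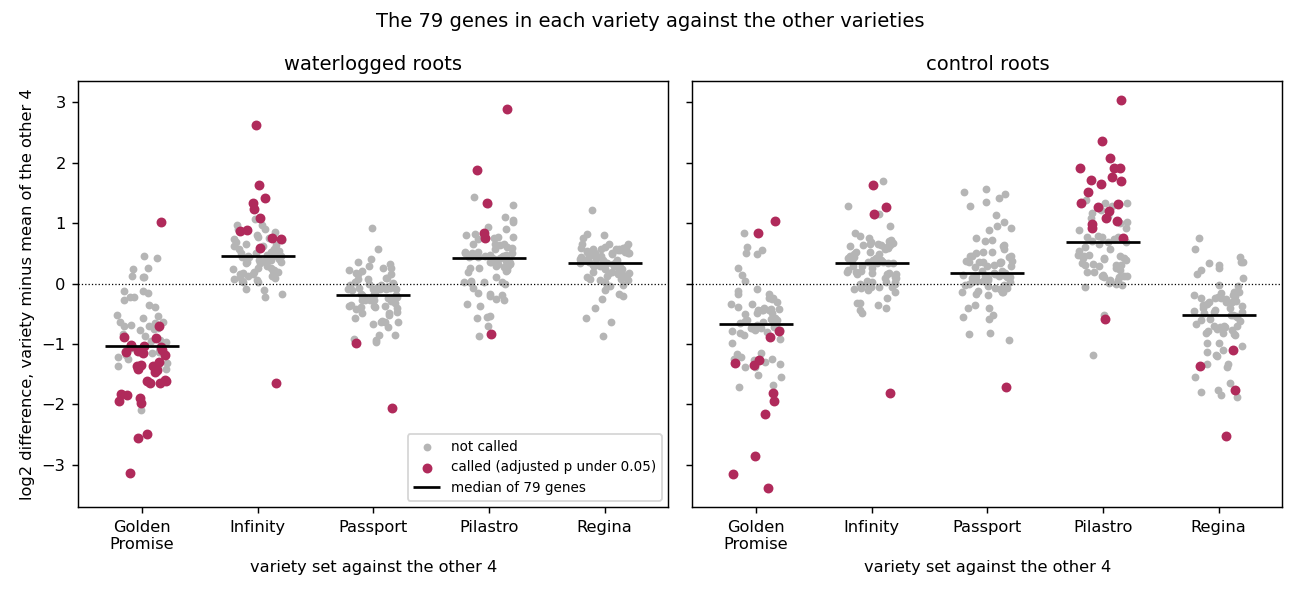
Log2 difference between each variety and the mean of the other 4 varieties for the 79 genes, in waterlogged roots (left) and control roots (right), with called genes in red and the median as a line. Golden Promise lies lowest in both panels (medians -1.04 in waterlogged and -0.68 in control roots), and Pilastro lies highest in controls (median 0.68).

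Single genes with a description followed these orders to different degrees. The alpha-amylase gene 7HG0721200 differed among the waterlogged groups (adjusted p = 0.000285 by edgeR) and was lower in waterlogged Golden Promise than in the other 4 varieties, by a log2 difference of -2.55 ± 0.38 (SE, adjusted p = 4.22e-05 by edgeR). Its controls were not called (adjusted p = 0.258 by edgeR). The aspartyl protease gene 1HG0063330 was also lower in waterlogged Golden Promise (-1.18 ± 0.20, adjusted p = 0.000227 by edgeR), and so were glucose-6-phosphate isomerase (1HG0007200, -1.15 ± 0.24, adjusted p = 0.00204 by edgeR) and the aminotransferase 1HG0019260 (-1.59 ± 0.36, adjusted p = 0.00349 by edgeR). These 4 calls against the other varieties held when any single library was left out. For the isomerase and the aminotransferase the F-test among the waterlogged groups (adjusted p = 0.00622 and 0.0168 by edgeR) was not past the threshold with waterlogged libraries fitted alone (0.0555 and 0.0859), and for the aminotransferase 1HG0019260 also not without waterlogged Golden Promise library 1 or 3.

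For ACC oxidase 1 (7HG0746640) the controls were called (adjusted p = 0.00124 by edgeR), with Pilastro higher than the others by 1.92 ± 0.41 on the log2 scale (adjusted p = 0.00254 by edgeR, 0.0706 without Pilastro control 2), and the waterlogged groups were not (adjusted p = 0.328 by edgeR). The desaturase 3HG0307490 had the same outcome, with adjusted p = 0.00311 in controls and 0.177 in waterlogged roots by edgeR. For the cysteine oxidases 2HG0208830 and 5HG0425080 the control calls (adjusted p = 0.0178 and 0.033 by edgeR) did not hold with controls fitted alone (0.077 and 0.104), with the shared replicate block (0.0796 and 0.0785) or without Pilastro control 2 or control 3, and for 5HG0425080 also without Golden Promise control 1 or 3 or Regina control 2 or 3. A call in one condition and none in the other is not a tested difference between conditions. The interaction was not called for any member.

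The ACC oxidase 5HG0485780 was the described member with the clearest variety difference. It differed among the controls (adjusted p = 3.81e-07 by edgeR) and among the waterlogged groups (adjusted p = 3.32e-07 by edgeR). Pilastro was above the mean of the other 4 by 2.89 ± 0.28 in waterlogged and by 3.03 ± 0.29 in control roots on the log2 scale (adjusted p = 1.4e-07 and 1.27e-07 by edgeR). Infinity differed from the others by -1.64 ± 0.37 in waterlogged and -1.81 ± 0.41 in control roots (adjusted p = 0.00434 and 0.00518 by edgeR). These differences of Pilastro and Infinity stayed called when any single library was left out.

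The 79 genes together took up a larger share of each library after waterlogging, which follows from the rule. The share of counts was 1.19 ± 0.273% in waterlogged and 0.340 ± 0.0214% in control roots of Golden Promise, 2.26 ± 1.00% and 0.469 ± 0.143% for Infinity, and 1.90 ± 0.0785% and 0.471 ± 0.0770% for Passport. It was 2.49 ± 0.508% in waterlogged and 0.629 ± 0.263% in control roots of Pilastro, and 2.44 ± 0.365% and 0.344 ± 0.0521% in Regina (SD, n = 3 each). A single member without a description held a large part of these counts. Without it the shares were 0.776% in waterlogged and 0.234% in control roots of Golden Promise and 1.47% and 0.204% for Regina, and the ratio of the shares was 3.31 for Golden Promise, 4.56 for Infinity, 3.71 for Passport, 3.96 for Pilastro and 7.21 for Regina.

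**Figure D5:**
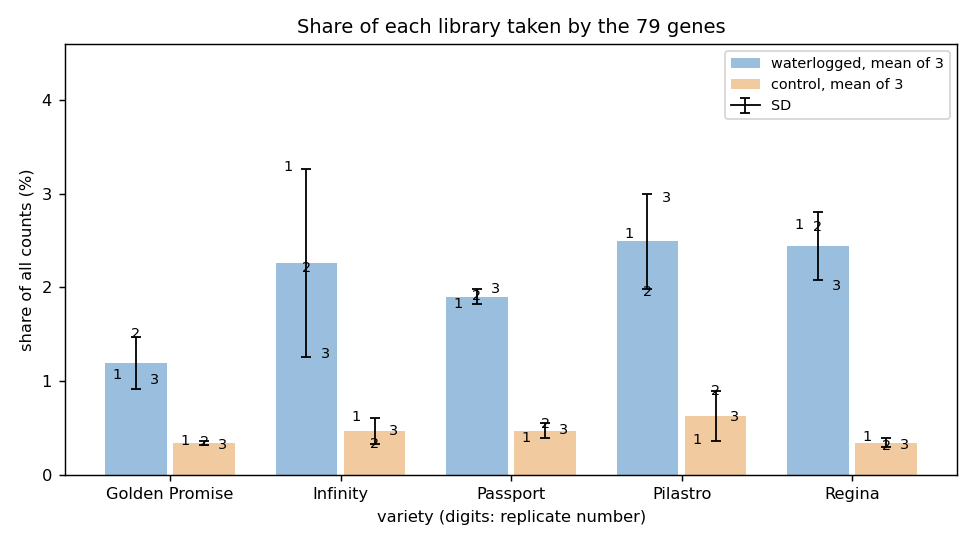
Share of all counts (%) taken by the 79 genes in each library, with waterlogged groups at the left and controls at the right of each pair. Bars are means of 3 libraries with the SD, and digits are replicate numbers. The share is 1.19% in waterlogged Golden Promise and 1.90% to 2.49% in the other waterlogged groups, and the waterlogged Infinity libraries range from 1.29% to 3.29%.

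In some groups 1 library was highest or lowest for most of the members. In waterlogged Infinity, library 1 had the highest CPM of the 3 in 59 of the 79 genes and library 3 the lowest in 57, where 32.5% and 41.9% of the expressed genes did so. The share of counts of the members in these 3 libraries was 3.29%, 2.21% and 1.29%. In Infinity controls, library 1 was highest in 53 genes and library 2 lowest in 59 (25.8% and 29.7% of the expressed genes). In Pilastro controls, library 2 was highest in 54 genes and library 1 lowest in 57 (26.7% and 40.8%), with shares of counts of 0.900% and 0.375%. In waterlogged Pilastro, library 2 was lowest in 55 genes (27.8%). In waterlogged Golden Promise, library 2 was highest in 52 genes (35.3% of the expressed genes). Passport control 2 was highest in 46 genes (32.3%) and Passport control 1 lowest in 44 (34.0%). Regina control 1 was highest in 43 genes (26.1%). Some libraries were closer to the expressed genes. Golden Promise control 1 was lowest in 41.8% of the members, where 38.1% of the expressed genes were so, and waterlogged Passport library 3 was highest in 29.1% (29.4%). Infinity control 2, waterlogged Infinity library 1 and Pilastro controls 1 and 2 were among the libraries whose omission moved the counts above.

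The spread between replicates was larger for the members than for the expressed genes. The members were chosen by ratios from these same libraries, so this is a description, and the part of that choice in it was not tested. The edgeR dispersion, the squared coefficient of variation beyond counting error, had a median of 0.158 over the 79 genes and of 0.0251 over the expressed genes, and it was above 0.0251 in all 79. The SD of log2 CPM within a group had a median over the members of 0.77 in waterlogged Infinity and 0.66 in Pilastro controls, where the expressed genes had 0.18 and 0.19. In waterlogged Passport it was 0.32, where the expressed genes had 0.15. In Golden Promise it was 0.34 in waterlogged and 0.33 in control roots, where the expressed genes had 0.17 and 0.20.

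The members lay on all 7 chromosomes, with 13 on 1H, 15 on 2H, 13 on 3H, 9 on 4H, 13 on 5H, 8 on 6H and 8 on 7H. The expressed genes were spread in similar shares, for example 19.0% of the members and 16.7% of the expressed genes on 2H, and 10.1% and 14.6% on 7H. Within the 79 genes, 10 (12.7%) formed 5 pairs within 10 entries of each other in the order of identifiers. These pairs were on 2H (2 pairs), 3H (2 pairs) and 6H, and none of the 10 has a description. Pairs were not counted among the expressed genes, so whether the members lie closer together than other genes was not tested. In the closest pair, on 3H, the genes followed each other and had largest ratios of 15.4 and 15.4 and smallest ratios of 2.43 and 2.95.

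Library totals were 9601984 to 12349136 counts. A pair of genes of green tissue used as markers, the small subunit of Rubisco and Rubisco activase, were at group means of 0.817 to 5.67 CPM in all 10 groups. The activase was at 1.29 CPM in waterlogged and 5.20 CPM in control roots of Pilastro (called lower, adjusted p = 0.0318 by edgeR), and edgeR called no other comparison of the pair. In Passport the activase was at 1.80 CPM in waterlogged and 5.67 CPM in control roots (adjusted p = 0.118 by edgeR), and DESeq2 called 1 of the pair lower in Passport and 1 in Pilastro. Their part in the results was not tested. Scaling by edgeR's TMM factors in place of library totals moved the median log2 ratio of the expressed genes by 0.07 or less in each variety.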

How the data were processed

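RNA of barley roots was selected for polyadenylated transcripts and sequenced as single-end reads. Reads were mapped by the authors to Morex V3 with Bowtie2 2.4.5, SAMtools 1.15.1 was used on the alignments, and the deposited gene counts were made with StringTie 2.1.7. The counts are whole numbers and not normalized. Strand and the treatment of reads that fit several copies were not given in the sources used here.

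CPM were computed on library totals. Tests used edgeR 4.0.16 (R 4.3.3) with TMM scaling, filterByExpr, 1 mean per group over all 30 libraries, and Benjamini-Hochberg adjustment over 20576 genes at 0.05. SE were derived from the F statistic. DESeq2 1.42.0, other scalings and filters, fits of single varieties or conditions, a replicate block, and leaving out each library in turn were the alternatives. Scripts were tested on simulated data. Figures used python 3.11.15 and matplotlib 3.10.9.

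The 79 genes, the gene lists and the tests were chosen with earlier results of these data known. Genes named are the 13 with a description and the 2 others with the highest smallest ratio, beside family members. Descriptions came from the study's own annotation, which did not cover every identifier. None of 58438 RefSeq entries matched an identifier, so no sequence is shown.

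The tests were fitted without a replicate block, and the fits with one are given where they move a count. Same-numbered waterlogged and control libraries deviated together in every pair in Passport and Regina (correlations of 0.357, 0.431 and 0.217 in Passport and 0.189, 0.392 and 0.527 in Regina). Between varieties they did so in waterlogged roots of Infinity and Regina and of Passport and Pilastro (the library names of the last 2 varieties carry other numbers than the rest), and a block shared within these pairs of varieties was added after seeing the data. No 2 libraries of a group were alike within counting error (chi-square per degree of freedom of 13.3 to 55.0). The 3 pools of a group came from independent runs of the experiment, and no label ties a number to a run.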

Additional observations from a re-analysis of the deposited data

How the results depend on the processing

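Leaving out 1 library at a time gave 70 to 93 genes under the rule, and 35 of the 79 met it in all 30 runs. The members called higher in waterlogged than in control roots then numbered 2 to 40 in Golden Promise, 30 to 66 in Infinity, 9 to 43 in Passport, 23 to 52 in Pilastro and 57 to 69 in Regina. Members called among control groups numbered 19 to 34, among waterlogged groups 16 to 35, and by the interaction 0. For controls against the other controls the counts were 1 to 14 lower in Golden Promise, 1 to 5 higher in Infinity, 0 to 2 higher in Passport, 4 to 34 higher in Pilastro and 1 to 10 lower in Regina. For waterlogged roots against the other waterlogged roots they were 11 to 35 lower in Golden Promise, 5 to 14 higher in Infinity, 1 to 3 lower in Passport, 1 to 7 higher in Pilastro and 0 to 2 higher in Regina. Golden Promise had the lowest control mean in 28 to 50 of the 79 genes. With DESeq2, 49 members were called higher in waterlogged Golden Promise, 19 lower in Golden Promise controls, 1 higher in Passport controls and 10 lower in Regina controls. Fitted alone, Infinity gave 9 members called higher after waterlogging and Pilastro 0. Without a filter on low counts 1 member was lower in waterlogged Passport. The rule gave 251 genes at a ratio of 1.5 and 24 at a ratio of 3, and with group medians 89 genes, of which 56 were among the 79. The replicate block gave 37, 64, 49, 58 and 73 members called higher after waterlogging in Golden Promise, Infinity, Passport, Pilastro and Regina, 24 among controls, 25 among waterlogged groups, 0 by the interaction and 1 higher in waterlogged Regina, and it moved no other count by over 1.5 times. The block shared by Infinity and Regina and by Passport and Pilastro, chosen after seeing the data, gave 17 members higher in Infinity controls, 6 higher in Pilastro controls, 2 lower in Regina controls, 18 higher in waterlogged Infinity and 16 higher in waterlogged Regina. Its same-number correlations were 0.263 to 0.379 and 0.145 to 0.233 in waterlogged roots, and 0.0823 to 0.504 and 0.0782 to 0.379 in controls, where 1 pair of each was under 0.1. Golden Promise and Pilastro, which shared no block, had 0.353, 0.269 and 0.0884 in controls and -0.406, -0.0717 and -0.212 in waterlogged roots. Within Golden Promise, Infinity and Pilastro, same-numbered waterlogged and control libraries deviated together in some pairs and not in others. For numbers 1, 2 and 3 the correlations were -0.0706, 0.358 and 0.348 in Golden Promise. They were -0.113, 0.255 and 0.194 in Infinity, and 0.260, -0.0668 and 0.544 in Pilastro. The order of Golden Promise (46 genes) and Regina (24 genes) for the lowest control mean rested on Regina control 1. Without that library the count for Golden Promise was 28. Shares of all genes called were not computed under these settings, so the counts stand without a share beside them. The causes of the changes under these settings were not tested. With 3 pools a group and a spread between pools above that of most genes, small differences between varieties could not be resolved.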
